A study of Mus musculus with 36 samples.

Results

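Cnr1, Cckbr, Crhbp and Drd1, 4 mouse genes of neuromodulator signalling that have been linked to anxiety, were followed in the whole brains of 18 newborn mice of 3 lines. They were 4 of 8702 genes with a named probe on the array, and each was measured by 1 probe, so 4 of 45476 probes that were no controls are described. A probe was assigned to a gene by the number in its deposited identifier, read as an NCBI Gene ID (12801 for Cnr1, 12426 for Cckbr, 12919 for Crhbp and 13488 for Drd1). That reading is an inference from the identifiers and could not be checked against the probe sequences. The genes were picked for what they do and for differences between these lines seen earlier in the same arrays. Their levels and differences are therefore given as a description without a test.

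Cnr1 encodes the CB1 cannabinoid receptor, which sits on nerve terminals and lowers transmitter release when it binds endocannabinoids made by the receiving neuron. Cckbr encodes the CCK-B receptor, through which the neuropeptide cholecystokinin acts in the brain and through which cholecystokinin fragments can provoke panic in humans. Crhbp encodes a secreted protein that binds corticotropin-releasing hormone, the peptide that starts the hormonal stress response, and keeps it from its receptors. Drd1 encodes the D1 dopamine receptor, which raises cyclic AMP in neurons of the striatum and cortex. Per the reference gene table, Cnr1 lies on chromosome 4, Cckbr on chromosome 7, and Crhbp and Drd1 on chromosome 13, so none of the 4 lies on chromosome 10.

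The C10 congenic line is written A.B6chr10 in the series text. By the convention for such names this is the A/J strain into which chromosome 10 material of B6 was crossed. The sources used here do not say how much of chromosome 10 it carries or what B6 material remains elsewhere. B6 and A/J are inbred strains and are taken here as the parents of the congenic line. Each line gave 6 whole brains of postnatal day 0.5, untreated as far as the labels say, and each brain was hybridised alone to a Sentrix Mouse-6 array. The series title ties the study to Rnf41, a gene it associates with anxiety, depression and drug-evoked seizures. No behaviour of these pups is recorded in the labels, so a link of a gene to anxiety is background here and not a measurement.

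The stretch before a gene's start is shown for Cckbr and Crhbp, because both had their highest mean in B6 and gave the largest differences from B6 in the A/J and C10 congenic lines, in that order. Each line below is a promoter window of RefSeq on assembly GRCm38.p6, 300 bases long and written 5′ to 3′ on the gene's strand, at chr7:105425481-105425780 (plus strand) for Cckbr and chr13:95444782-95445081 (minus strand) for Crhbp. Capitals mark matches to the cyclic AMP response half-site TGACG or to TATAAA, searched on both strands.
Cckbr: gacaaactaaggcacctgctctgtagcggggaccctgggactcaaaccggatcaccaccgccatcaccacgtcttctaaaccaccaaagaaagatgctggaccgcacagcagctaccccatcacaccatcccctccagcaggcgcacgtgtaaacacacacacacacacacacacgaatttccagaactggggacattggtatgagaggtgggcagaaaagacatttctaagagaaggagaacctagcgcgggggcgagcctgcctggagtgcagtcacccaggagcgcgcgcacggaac
Crhbp: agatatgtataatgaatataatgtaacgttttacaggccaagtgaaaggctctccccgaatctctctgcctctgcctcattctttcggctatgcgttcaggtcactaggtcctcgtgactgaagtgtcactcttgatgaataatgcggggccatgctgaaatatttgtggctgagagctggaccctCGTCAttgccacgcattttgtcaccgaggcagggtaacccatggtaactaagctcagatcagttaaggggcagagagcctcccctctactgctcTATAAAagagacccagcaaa
The Crhbp window held 1 half-site, written here as its reverse complement CGTCA, and 1 TATAAA. The Cckbr window and the windows of Cnr1 and Drd1 held neither motif. Among 32851 windows of the same length in the reference, 20.8% held the half-site and 13.6% held TATAAA, so both motifs are common. The Crhbp window had 48% G and C bases and the Cckbr window 57%, against a median of 52.7% over those windows. The Cnr1 and Drd1 windows at the start listed earliest on the gene were richer, with 76.3% and 65.7%. The reference sequence is of the B6 strain, and A/J differences in these windows were not examined.

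The arrays had similar numbers of detected probes, 14385 to 15707 per array at a detection p under 0.01. The median probe signal lay between 27.1 and 27.8. The quartiles were already nearly equal in the deposited values, so the medians cannot show how alike the arrays were before that processing. The neuronal genes Dcx, Gap43 and Syt1 were detected on all 18 arrays, but the probe of Snap25, also a neuronal gene, was detected on none. A/J brain 6 stood apart by its Xist signal of 7076.6 and by Eif2s3y and Kdm5d signals of −7.3 and −2.9, whereas the other 17 brains had Xist signals of at most 23.0, Eif2s3y signals of at least 1496.8 and Kdm5d signals of at least 233.2. Values without that brain are given beside the differences from A/J. Red-cell genes also moved with the lines. Their summed signal was 24068 to 50783 in the C10 congenic line, 9353 to 23232 in B6 and 33787 to 53024 in A/J. The sum is of Hba-a1, Hbb-b1 and Hbb-b2, and the beta chain genes in it went in opposite directions. It is therefore no plain measure of blood. Hba-a1, the alpha chain gene, had means of 28790 in C10 congenic, 12450 in B6 and 31117 in A/J brains. Whole brain is a mixture of cells, so fewer cells of a type and less RNA per cell cannot be told apart in any value below.

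Cnr1 was near the detection limit and was the only one of the 4 genes with its highest mean in A/J. Its deposited signal, a linear brightness after background subtraction, was 97.9, 66.9, 53.5, 59.2, 79.2 and 67.8 in C10 congenic brains 1 to 6. It was 84.3, 118.9, 113.0, 117.2, 62.4 and 49.7 in B6 brains, and 147.2, 148.8, 178.9, 190.9, 86.1 and 165.9 in A/J brains. All A/J brains but brain 5 lay above every C10 congenic and every B6 brain, while the C10 congenic and B6 brains overlapped over most of their range. The probe passed the detection threshold in 1 of 6 C10 congenic brains, 3 of 6 B6 brains and 5 of 6 A/J brains, so most C10 congenic values are not distinguishable from background. The lowest detected signal on an array lay between 79.2 and 101.4. The means were 70.8 ± 15.9 in C10 congenic brains, 90.9 ± 30.1 in B6 brains and 153 ± 36.9 in A/J brains (SD, n = 6 each).

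Cckbr had its highest mean in B6 and its lowest in A/J, with the C10 congenic line between. The signals were 165.6, 249.5, 250.1, 175.2, 266.1 and 234.1 in C10 congenic brains 1 to 6. They were 194.4, 361.0, 396.1, 492.4, 292.5 and 303.2 in B6 brains, and 119.3, 211.3, 156.6, 98.4, 173.4 and 98.0 in A/J brains. All B6 brains but brain 1 exceeded every A/J brain and every C10 congenic brain, and 4 of 6 C10 congenic brains exceeded every A/J brain. The probe was detected on all 18 arrays. The means were 223 ± 42.4 in C10 congenic brains, 340 ± 102 in B6 brains and 143 ± 45.5 in A/J brains (SD, n = 6 each).

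Crhbp had its highest mean in B6 and its lowest in the C10 congenic line, so that the congenic line did not lie between its parents. The signals were 199.2, 191.2, 197.4, 122.3, 199.8 and 157.5 in C10 congenic brains 1 to 6. They were 184.9, 424.6, 313.5, 473.0, 298.5 and 243.4 in B6 brains, and 262.5, 235.4, 240.0, 203.4, 210.4 and 237.1 in A/J brains. Every C10 congenic brain lay below every A/J brain, though by a narrow margin, with 199.8 as the highest C10 congenic signal and 203.4 as the lowest A/J signal. Only B6 brain 1 fell within the C10 congenic range. The probe was detected on all 18 arrays, and the means were 178 ± 31.6 in C10 congenic brains, 323 ± 109 in B6 brains and 231 ± 21.5 in A/J brains (SD, n = 6 each).

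Drd1 was well detected and, like Cckbr and Crhbp, had its highest mean in B6. The signals were 330.7, 347.1, 271.2, 377.0, 587.7 and 480.0 in C10 congenic brains 1 to 6. They were 335.7, 593.8, 558.6, 600.2, 631.8 and 532.5 in B6 brains, and 435.6, 326.4, 353.4, 351.6, 320.4 and 363.1 in A/J brains. All B6 brains but brain 1 exceeded every A/J brain, whereas C10 congenic brains 5 and 6 exceeded every A/J brain and the other 4 lay among or below them. The means were 399 ± 115 in C10 congenic brains, 542 ± 107 in B6 brains and 358 ± 41.3 in A/J brains (SD, n = 6 each). The probe was detected on all 18 arrays.

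**Figure D1:**
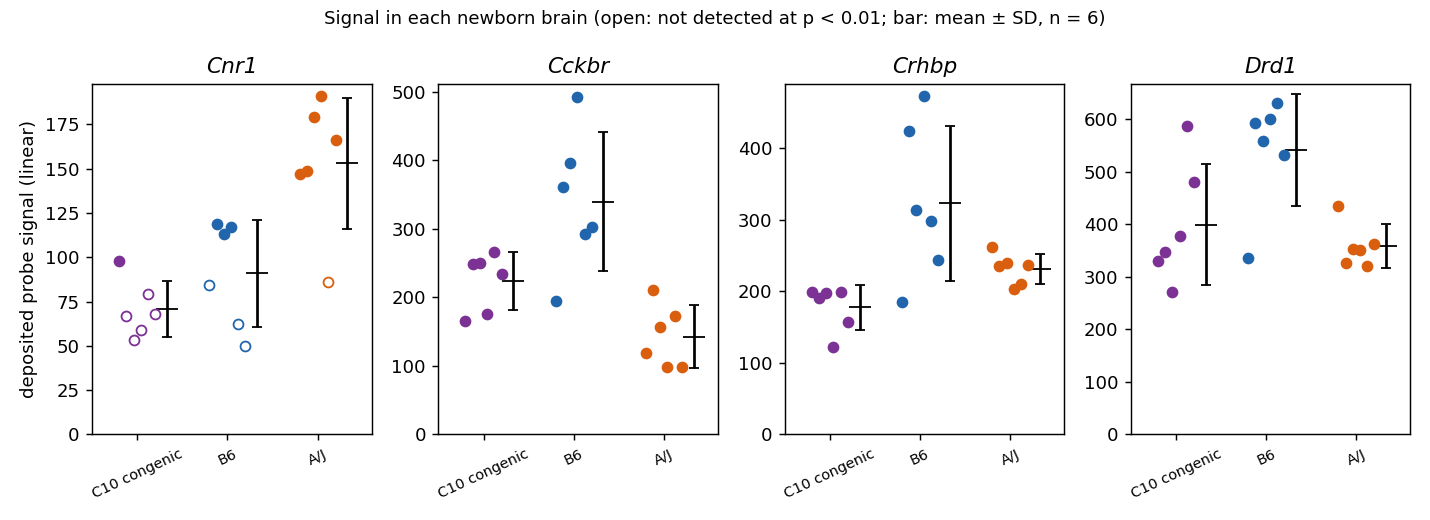
Deposited probe signal on a linear axis for each of the 4 genes, with 1 point per newborn brain, open where the probe was not detected, beside the mean ± SD of the 6 brains of a line. A/J stands highest for Cnr1 alone, most C10 congenic points of Cnr1 are open, and a single B6 brain, number 1, lies low for Cckbr, Crhbp and Drd1.

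Each array carried between 24 and 55 beads of these probes, and the standard error over beads was 1.89 to 8.37 signal units, while the SD between brains of a line was 15.9 to 115 units. The bead error leaves out labelling and hybridisation, so it is not the whole error of an array. The coefficient of variation was lowest for Crhbp and Drd1 in A/J, at 9.30% and 11.5%, and highest for Crhbp and Cnr1 in B6, at 33.6% and 33.1%. B6 brain 1 had the lowest signal of its line for Cckbr, Crhbp and Drd1 but not for Cnr1. That brain also had the highest summed red-cell signal of its line, 23232, against 9353 to 15880 in the other B6 brains. Whether its low signals go with that sum was not tested. Levels of different probes are not compared as amounts of RNA, because probes differ in how brightly they report it.

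Differences between lines were taken on the log2 scale after adding 75 to each signal, which lessens the differences of dim probes, and quantile normalisation. They came from a single limma fit over 15864 detected probes, in which a probe was called when its adjusted p was under 0.05. The 3 contrasts share their lines, so the values are set side by side and are not independent of each other. Since the genes were chosen on these contrasts, nothing is read from how many of them were called.

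The C10 congenic line and A/J differ in chromosome 10 material, if the name is read correctly. The log2 difference of C10 congenic minus A/J was −0.63 for Cnr1 (SE 0.129), 0.47 for Cckbr (SE 0.156), −0.28 for Crhbp (SE 0.141) and 0.10 for Drd1 (SE 0.142). The fit called 1 of the 4, Cnr1, where 0.829% of 4343 detected genes were called in either direction and 0.553% were called lower. The size of the Cnr1 difference is uncertain, because the probe was at background in most C10 congenic brains and passed the filter of 6 detected arrays through its 5 detections in A/J. The Cnr1 call was lost when C10 congenic brain 2 or 6 or A/J brain 1, 2, 3 or 4 was left out, and held in the other 12 of 18 such fits, with differences from −0.73 to −0.59. It was also lost when no filter on dim probes was set. Crhbp was not called, although the lines did not overlap, as was so for 1.8% of the detected genes. Without A/J brain 6 the differences were −0.61 for Cnr1, 0.41 for Cckbr, −0.28 for Crhbp and 0.10 for Drd1, with the same calls.

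Against B6, the C10 congenic line was lower in the mean of all 4 genes. The log2 difference of C10 congenic minus B6 was −0.17 for Cnr1 (SE 0.129), −0.45 for Cckbr (SE 0.156), −0.62 for Crhbp (SE 0.141) and −0.39 for Drd1 (SE 0.142). The fit called Crhbp alone, where 10.8% of detected genes were called in either direction and 6.42% were called lower. Its difference ranged from −0.73 to −0.52 when single brains were left out. Without B6 brain 1, which was dim for 3 of the genes, Cckbr at −0.57 and Drd1 at −0.51 were called too. Both were also called without C10 congenic brain 5, and neither was called without any other single brain.

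Between the parents, B6 exceeded A/J for 3 genes and lay under it for Cnr1. The log2 difference of B6 minus A/J was −0.46 for Cnr1 (SE 0.129), 0.92 for Cckbr (SE 0.156), 0.34 for Crhbp (SE 0.141) and 0.49 for Drd1 (SE 0.142). The fit called Cnr1, Cckbr and Drd1, where 15.5% of detected genes were called in either direction, 7.62% higher and 7.87% lower. Without a filter on dim probes Cnr1 and Drd1 were not called. Crhbp was called only without B6 brain 1, at 0.45. Without A/J brain 6 the differences were −0.44 for Cnr1, 0.86 for Cckbr, 0.34 for Crhbp and 0.50 for Drd1, with the same calls. The Cckbr means stood at a ratio of 2.38 in B6 over A/J on the deposited scale, the largest of the 4 genes in this contrast.

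**Figure D2:**
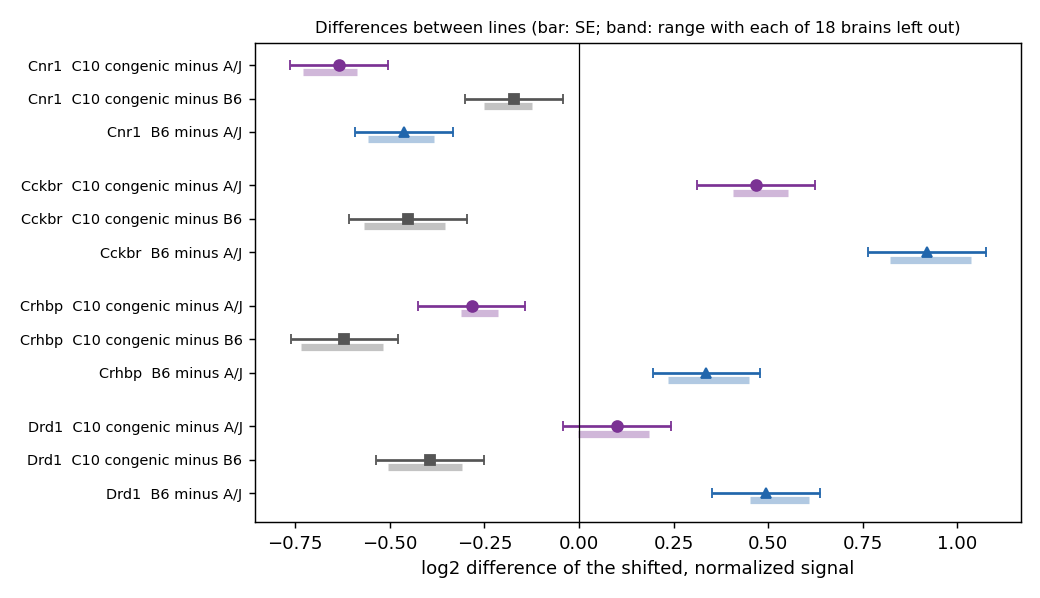
Log2 differences between lines for the 4 genes, with the standard error of the fit as a bar and, as a band, the range found when each of the 18 brains was left out in turn. Cckbr in B6 minus A/J lies farthest from 0 at 0.92, and the band of Drd1 in C10 congenic minus A/J is the only one that reaches 0, with −0.0022 at its lower end.

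Put in order of level, A/J stood above B6 and the C10 congenic line for Cnr1, and the difference of −0.17 between the C10 congenic line and B6 was under 2 of its standard errors. For Drd1 B6 stood first, and the C10 congenic line and A/J, next to each other in the order, were 0.10 apart with a standard error of 0.142. For Cckbr the C10 congenic line was about equally far from B6 (−0.45) and from A/J (0.47). For Crhbp the order was B6, A/J and then the C10 congenic line, and the neighbours A/J and C10 congenic lay 0.28 apart, which was not called. The median size of a difference over all 4343 detected genes was 0.116 for C10 congenic minus A/J, 0.133 for C10 congenic minus B6 and 0.154 for B6 minus A/J.

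All 4 results rest on a single probe per gene. Whether A/J and B6 differ in sequence under any of these probes was not tested, and a variant there and a difference in RNA cannot be told apart with 1 probe. For Cnr1, Cckbr and Drd1, the 10 measured genes nearest on the chromosome, 5 on either side, were set beside the gene as a check on the region. Over all detected genes 0.829% were called in C10 congenic minus A/J, 10.8% in C10 congenic minus B6 and 15.5% in B6 minus A/J. Near Cnr1 no neighbour was called in C10 congenic minus A/J or C10 congenic minus B6. Rragd and Smim8 were called in B6 minus A/J, 1 higher and 1 lower. Near Cckbr only Pgap2 was called, lower in C10 congenic minus B6 and higher in B6 minus A/J. Cckbr differed in the same directions, without a call in C10 congenic minus B6. Near Drd1 only Cplx2 was called, lower in C10 congenic minus B6, where Drd1 was lower without a call.

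The pathways around these genes were read from 5 lists of other genes, chosen for their role. These lists and the cell type lists below were drawn up with earlier results of these data known. The shares called and the adjusted p of list genes carry that limit. Of 124 listed genes, 53 had a named probe and 34 were detected often enough to be tested. The cholecystokinin gene itself, the CRH receptor genes, Th, Slc6a3 and Drd2 were not measured by a named probe here, and the probes of Crh and of the glucocorticoid receptor gene Nr3c1 were detected on none of the 18 arrays.

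None of the 34 pathway genes was called between the C10 congenic line and A/J, where 0.829% of detected genes were called in limma's fit. At an unadjusted p under 0.05 there were 4 of the 34, against 15.5% of all detected genes. Between the C10 congenic line and B6, 4 of the 34 were called (11.8%, against 10.8% of detected genes), 2 of them higher and 2 lower. Between B6 and A/J, 7 were called (20.6%, against 15.5%), 4 higher and 3 lower. The median log2 difference of the 34 was −0.031 for C10 congenic minus A/J, −0.095 for C10 congenic minus B6 and 0.11 for B6 minus A/J, against −0.033, −0.0022 and −0.030 over all detected genes. Without A/J brain 6, 8 genes were called in B6 minus A/J, and without A/J brain 3 or B6 brain 5 there were 4.

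Of the endocannabinoid list, 2 of 17 genes were tested. Faah, the enzyme that breaks down anandamide, was higher in B6 than in A/J. Its signal was 543 ± 91.8 in C10 congenic brains, 646 ± 69.4 in B6 brains and 438 ± 106 in A/J brains (SD, n = 6 each), and B6 minus A/J was 0.51 (SE 0.13, limma adjusted p = 0.00726). The dimmer of its 2 probes differed in the same direction by 0.32 and was not called. Daglb, which makes the endocannabinoid 2-AG, was not called in any contrast, with differences of −0.050, 0.13 and −0.18 for C10 congenic minus A/J, C10 congenic minus B6 and B6 minus A/J. The probes of Dagla, the main enzyme making 2-AG in the adult brain, were not detected on any array, and Mgll and Napepld had no named probe here.

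The cholecystokinin, CRH and dopamine lists gave no call, but few of their genes were tested, and the shares over detected genes were 0.829%, 10.8% and 15.5% in the 3 contrasts. Of 12 genes of cholecystokinin processing, 3 were tested, and Pcsk2, a protease that cleaves peptide precursors, had the largest difference, 0.40 for B6 minus A/J without a call (limma adjusted p = 0.138). Of 19 genes of the CRH and stress axis, 4 were tested, and Hsd11b1, which regenerates active glucocorticoid, was −0.35 in C10 congenic minus B6 without a call (limma adjusted p = 0.215). Of 22 dopamine genes, 6 were tested. Gnal and Adcy5, the G protein subunit and the cyclase through which D1 receptors act in the striatum, and Ddc, which completes dopamine synthesis, were not called in any contrast. Ddc had 247 ± 50.7 in C10 congenic brains, 246 ± 57.7 in B6 brains and 289 ± 32.5 in A/J brains (SD, n = 6 each).

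Of the list of shared G protein signalling genes, 19 of 54 were tested, out of 34 pathway genes tested in all. The fit called 4 of the 19 in C10 congenic minus B6 and 6 of the 19 in B6 minus A/J, against 10.8% and 15.5% of detected genes, and the lists were not tested against each other. Rgs4, which shortens the signal of Gi- and Gq-coupled receptors, had 2160 ± 365 in C10 congenic brains, 3098 ± 491 in B6 brains and 2034 ± 213 in A/J brains (SD, n = 6 each). It was −0.51 in C10 congenic minus B6 (SE 0.123, limma adjusted p = 0.00618) and 0.58 in B6 minus A/J (SE 0.123, limma adjusted p = 0.00156). Arrb1, the gene of beta-arrestin 1, which uncouples receptors from G proteins, was −0.63 and 0.55 in the same contrasts (limma adjusted p = 0.000669 and 0.00245). It was dim, detected in 1 of 6 C10 congenic, 5 of 6 B6 and 2 of 6 A/J brains. It passed the filter on dim probes mostly through B6, where its mean was highest. Its adjusted p are therefore not read as support, and the size of its difference is uncertain. Its other probe was not detected in any brain. For both genes the mean was highest in B6.

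Gnb4, a G protein beta subunit, gave the largest difference of the lists, and its probes disagreed. The brighter probe had 2197 ± 243 in C10 congenic brains, 1041 ± 230 in B6 brains and 2446 ± 330 in A/J brains (SD, n = 6 each), with 1.05 for C10 congenic minus B6 and −1.19 for B6 minus A/J (SE 0.133, limma adjusted p = 2.59e-06 and 2.89e-07). The dimmer probe went the other way, with means of 697, 878 and 507, and was called at 0.73 in B6 minus A/J. No direction is therefore given for the gene. Adcy6, an adenylyl cyclase, was higher in the C10 congenic line than in B6 by 0.32 (limma adjusted p = 0.0348) and lower in B6 than in A/J, at −0.32 (limma adjusted p = 0.0271). Gng10, a gamma subunit, was lower in B6 than in A/J at −0.40 (limma adjusted p = 0.0322), and Prkar2b, a regulatory subunit of protein kinase A, was higher at 0.31 (limma adjusted p = 0.0393). These weaker calls were lost in some fits that left out a brain, and held in 12 of 18 and 14 of 18 such fits for Adcy6 in C10 congenic minus B6 and B6 minus A/J, in 12 of 18 for Gng10 and in 9 of 18 for Prkar2b.

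**Figure D3:**
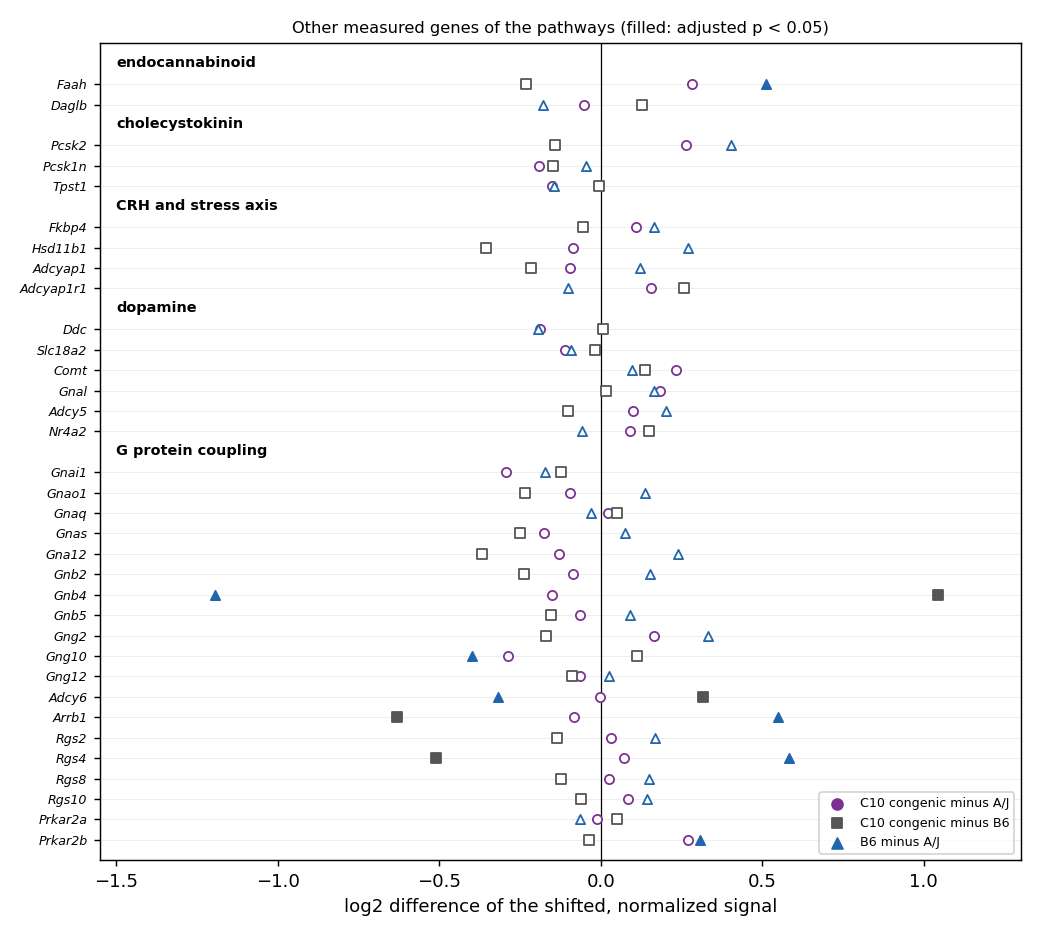
Log2 differences between lines for the 34 tested genes of the 5 pathway lists, filled where the adjusted p of the limma fit was under 0.05. No circle, C10 congenic minus A/J, is filled, and of the filled squares and triangles Gnb4 lies farthest out.

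Markers of cell types that could carry these receptors were read on the same arrays. Of 23 striatal neuron genes, 11 had a probe and 6 were tested, and their summed signal was 7853 to 10272 in the C10 congenic line, 8729 to 9797 in B6 and 8483 to 9198 in A/J. The defining striatal markers Adora2a, Gpr6 and Six3 were detected in no brain. Meis2, a striatal transcription factor also made elsewhere, was the only one called, at 0.58 in C10 congenic minus B6 (limma adjusted p = 0.0322), where 10.8% of detected genes were called. The call held in 11 of 18 fits that left out a brain, and the other 5 genes lay between −0.10 and 0.17 in that contrast. Of the excitatory neuron genes, all 10 with a probe were tested. Slc17a7, the vesicular glutamate transporter, was −0.76 and Mef2c −0.49 in C10 congenic minus B6 (limma adjusted p = 0.0123 and 0.00959), and Slc17a7 was 0.64 in B6 minus A/J (limma adjusted p = 0.0302), a call that held in 10 of 18 fits that left out a brain. The summed excitatory signal was 18345 to 21647 in the C10 congenic line, 19498 to 23969 in B6 and 17896 to 21356 in A/J, so its ranges overlapped. Of 22 GABA interneuron genes, 7 had a probe and 3 were tested, and none was called in any contrast. Their summed signal was 9645 to 10473 in the C10 congenic line, 8332 to 9443 in B6 and 8542 to 11717 in A/J. The C10 congenic and B6 ranges of that sum did not overlap. In C10 congenic minus B6, Reln, the brightest of the 3, was 0.29, Calb2 −0.16 and Nkx2-1 −0.25. Of 11 general neuron genes tested, Rbfox3, a marker of mature neurons, was the only one called, at 0.37 in B6 minus A/J (limma adjusted p = 0.0432, held in 9 of 18 such fits), and the list's median there was 0.060. Of 8 progenitor genes tested, Rrm2, needed for DNA synthesis, was the only one called, at −0.47 in C10 congenic minus B6 (limma adjusted p = 0.0368, held in 12 of 18 such fits), and the list's median there was −0.092. No gene of these lists was called between the C10 congenic line and A/J, where 0.829% of all detected genes were called, so that hardly any call is due in lists of this size. The part of cell makeup in the differences of the 4 genes was not tested.

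Red-cell genes differed in both contrasts with B6. Hba-a1, a haemoglobin alpha chain gene, was 1.19 in C10 congenic minus B6 and −1.37 in B6 minus A/J (limma adjusted p = 0.000262 and 3.92e-05). The beta chain genes Hbb-b1 and Hbb-b2 went in opposite directions, at −2.92 and 5.64 in C10 congenic minus B6 (limma adjusted p = 3.8e-13 and 1.21e-20), and are near-identical copies whose probes cannot be separated with certainty. Of the 3 microglial genes tested, Csf1r was called at 0.56 in C10 congenic minus B6 (limma adjusted p = 0.0112), and C1qa at 0.047 and C1qb at −0.069 were not called. The part of blood in the differences of the 4 genes was not tested.

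Within a line, the genes were compared brain by brain, which the choice of genes did not use. Over the 6 pairs of genes in each of 3 lines, 18 relations were computed from 6 brains each, of which 14 were positive and 4 negative. The closest was Cckbr with Crhbp in B6, with Pearson's r = 0.897 (exact permutation p = 0.0194, two-sided) and Spearman's rho = 0.886 (exact permutation p = 0.0333). After Benjamini-Hochberg adjustment over the 18 relations the exact p were 0.35 and 0.60. Without the 2 brains farthest from the median of Cckbr, r was 0.54. Leaving out extreme brains narrows the range and can lower r by itself, so this does not show where the relation rests. Crhbp with Drd1 in B6 had r = 0.767 (exact permutation p = 0.0431, adjusted 0.388), and rho was 0.657 (exact permutation p = 0.175, adjusted 0.63). No relation passed the adjustment.

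The 3 genes most like each of the 4 were found by Pearson's r over the 18 brains among 4343 detected genes, as a description that holds the line differences. All values share the same arrays and normalisation. For Cnr1 these were Ubtd2 (r = 0.87), Ess2 (0.79) and Sod1 (0.79). For Cckbr they were Pdf (0.88), Ndufaf2 (0.85) and Rhobtb2 (0.84). For Crhbp they were Coro2b (0.87), Ankrd40 (0.86) and Ube2m (0.83). For Drd1 they were Btrc (0.85), Selenot (0.84) and Aqp4 (0.82). After the line means were taken out, r lay between 0.61 for Ndufaf2 and 0.82 for Aqp4, the water channel of astrocytes. Aqp4 kept nearly the same r with Drd1, 0.82 on either reckoning, and none of its differences between lines was above 0.28 in size. The r without line means comes from the same 18 brains that picked these genes, so it is no separate evidence of a relation.

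**Figure D4:**
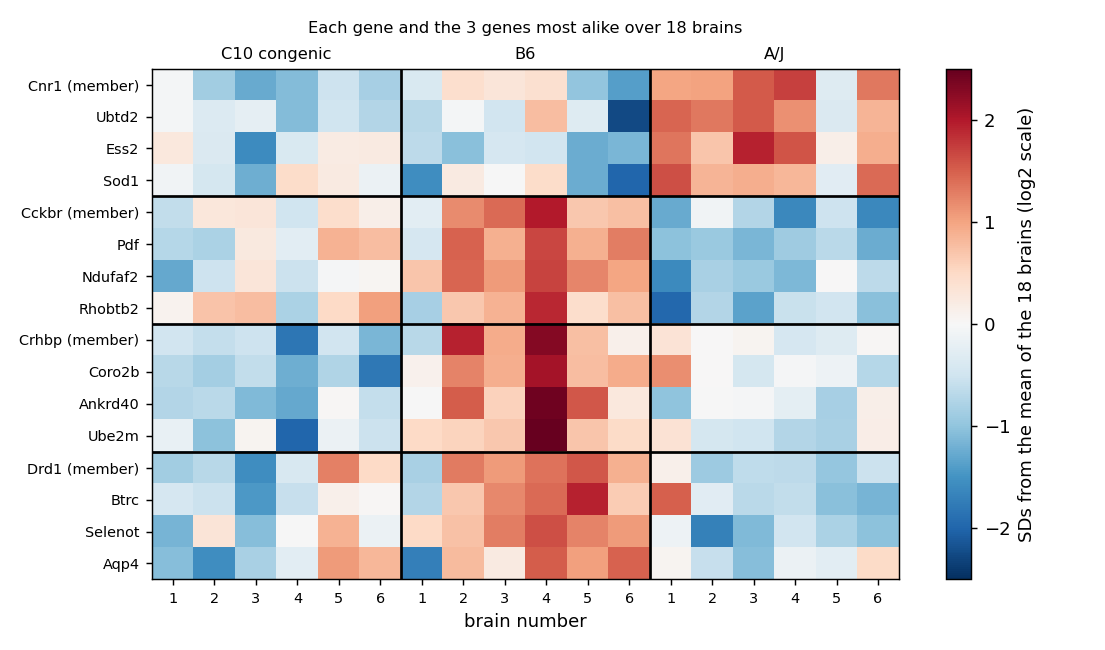
Each of the 4 genes over the 3 genes most like it, in SDs from the mean of the 18 brains on the log2 scale, with brains 1 to 6 of the C10 congenic line, B6 and A/J from left to right. Cnr1 and its 3 genes are high in A/J apart from brain 5. Genes of the other blocks have their highest mean in B6, where brain 1 is lowest for all but Ube2m. Rhobtb2 is nearly as high in the C10 congenic line, at −0.11 in C10 congenic minus B6.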

How the data were processed

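Whole-brain RNA of 18 newborn mice, 6 per line, was measured on Sentrix Mouse-6 arrays, and the sample titles gave the line and number of each brain. The files deposited by the authors hold a background-subtracted intensity per probe (lowest −59), a detection fraction between 0 and 1, whose complement was read as a detection p, a signal spread (SD) over beads, and a count of beads. BeadStudio is named in the submitters' processing notes, and the sources used here do not give its version or settings. The deposited quartiles were already nearly equal on all arrays. The authors' series table was identical to the array files. No array pair held identical values.

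From these, 640 control probes were left out and 75 was added to each intensity before log2 and quantile normalisation. Probes with a detection p under 0.01 on at least 6 of 18 arrays were kept (15864). Zero-padded numbers in probe identifiers were read as NCBI Gene IDs: 81.1% of 10024 were mouse Gene IDs, against 35.2% to 45.9% after adding 1 to 50 to each. This named 9832 probes, clone names named 982 and 34662 stayed unnamed. The first 2 probes of a gene had levels correlating with r = 0.391 over 1500 genes. A gene was its brightest kept probe (4343 genes).

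limma 3.58.1 (lmFit and eBayes, R 4.3.3) was fitted with a coefficient per line and no block, on all 3 lines, with two-sided p adjusted by the Benjamini-Hochberg method over all kept probes, and was tested on simulated data. Correlations within lines used all 720 pairings of 6 brains (scipy 1.17.1). Brains are separate animals per the labels' protocols, and their litters are not given. The 4 genes and all lists were chosen with earlier results of these data known. Besides them, the rule named their nearest ligands, enzymes and targets, every called gene of the lists, and the 3 most alike genes. Alternatives covered the shift, normalisation, filter, prior, background correction, lines fitted, a replicate block and leaving out each brain. Adult hippocampal arrays were not used, because 100 probe sets present on both array types had levels correlating with r = 0.0383 between them. The number of arrays limits the precision.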

Additional observations from a re-analysis of the deposited data

Results flagged for a closer look

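Drd1 gave 2 values that stood apart from the other brains of their line, among 12 groups of 6 brains examined by the gap to the nearest brain over the range of the line, above Dixon's critical value for 6 samples. In B6 brain 1 its signal was 335.7, the lowest of the line, with a gap of 0.665 of the range. In A/J brain 1 its signal was 435.6, the highest of the line, with a gap of 0.629 of the range. Both gaps are only a little above the critical value, and chance marks a few percent of such groups.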

How the results depend on the processing

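No difference of the 4 genes changed sign, under any alternative, except that Drd1 in C10 congenic minus A/J, not called, ranged from −0.0022 (without C10 congenic brain 5) to 0.19 when single brains were left out. Background correction by normexp with detection p shrank differences, to −0.11 for Cnr1, 0.12 for Cckbr and −0.078 for Crhbp in C10 congenic minus A/J, −0.22 for Crhbp in C10 congenic minus B6, and −0.087 for Cnr1 and 0.30 for Cckbr in B6 minus A/J. Its background SD was inferred at 363.7 to 434.4, against 4.398 to 4.761 from the signals alone, a setting chosen after seeing the data under which all 18 results were within the spread or within 1.5 times the count. Cnr1 was not kept when detection on 12 of 18 arrays was asked for. Without a filter on dim probes the Cnr1 calls and the Drd1 call were lost. Probes called in C10 congenic minus A/J numbered 148, and 1 without a filter, 275 with only those lines fitted and 17 to 315 when single brains were left out, the lowest without A/J brain 1 and the highest without B6 brain 4. That count also moved by over 1.5 times without any A/J brain, B6 brain 1 or 5, or any C10 congenic brain. The ranges were 1536 to 2229 for C10 congenic minus B6 and 2045 to 2892 for B6 minus A/J. Pathway genes called in B6 minus A/J numbered 7, and 4 without a filter, 4 to 8 with single brains left out, and 4 without A/J brain 3 or B6 brain 5. Called pathway genes were 3 to 5 in C10 congenic minus B6. Of 18 pairs of same-numbered brains, 8 deviated together with r over 0.1 (range −0.091 to 0.33), and a brain correlated best with its own number in 9 of 36 comparisons with another line, so the numbers were not taken to pair the brains. With a replicate block 223 probes were called in C10 congenic minus A/J, and Cckbr in C10 congenic minus B6 (−0.45) was called.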
